A study of Mus musculus with 8 samples.

Results

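The genes described here encode albumin and 9 other proteins that the liver secretes into plasma, most of them carriers: Alb, Afp, Afm and Gc of the albumin family on mouse chromosome 5, and Ttr, Trf, Ahsg, Fetub, Hpx and Ambp elsewhere. They are 10 of 21951 annotated protein-coding genes. The data are ATAC-seq of adult C57BL/6 (C57BL/6J in the study's methods) liver nuclei, with 4 libraries of control mice and 4 of Alb-D2KO mice, each made from 50000 nuclei. ATAC-seq marks accessible DNA, because a transposase inserts sequencing adapters where chromatin is open. In Alb-D2KO mice a floxed Dio2, the gene of the type 2 deiodinase that converts thyroxine into the active hormone T3, is inactivated in hepatocytes by Cre recombinase under the albumin promoter, from the transgene Tg(Alb-cre)21Mgn. The control libraries carry the word cre in their titles, and the study calls its controls Cre animals. The values are 2 lists of regions on the mm10 build, called once per genotype on grouped libraries. The first holds 8031 regions that were open in control liver and overlapped no Alb-D2KO region (RCAs, for reduced chromatin accessibility), and the second holds 250 regions that were open in Alb-D2KO liver only. An RCA was assigned to a gene when it overlapped the gene body or lay within 20 kb of it, which gave 19 RCAs of the 8031 and no Alb-D2KO-only region. Since each list is a single call on pooled libraries, there is no value per animal, no replicate error and no test, and depth per library is unknown. A region missing from the Alb-D2KO call was not detected there, which is not a measured absence.

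Hepatocytes secrete albumin as the most abundant plasma protein, and it carries fatty acids, bilirubin and hormones, among them thyroid hormone. The genes of its family arose by duplication, and Alb, Afp and Afm stand head to tail. Afp is active in fetal liver and is shut down after birth, whereas Alb stays active in the adult. These genes are textbook cases of liver transcription, driven from promoters and distant enhancers by factors such as HNF1, HNF4, C/EBP and FOXA.

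RCAs lay within 20 kb of 8 of the 10 genes, and Gc and Hpx had none. Among all protein-coding genes 31.2% had an RCA within that distance. Inside the gene body an RCA was found for 4 of the 10 genes (Alb, Trf, Ahsg and Fetub), against 15.7% of all protein-coding genes. Ahsg was the single gene of the 10 with an RCA within 200 bp of the start of its gene body, where 3.74% of all protein-coding genes had one. No Alb-D2KO-only region lay within 20 kb of any of the 10, against 1.32% of protein-coding genes, nor within 50 kb. The 19 RCAs came to 3.67 per 100 kb of the windows around these genes, whereas the windows of all protein-coding genes held 0.479 per 100 kb.

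**Figure D1:**
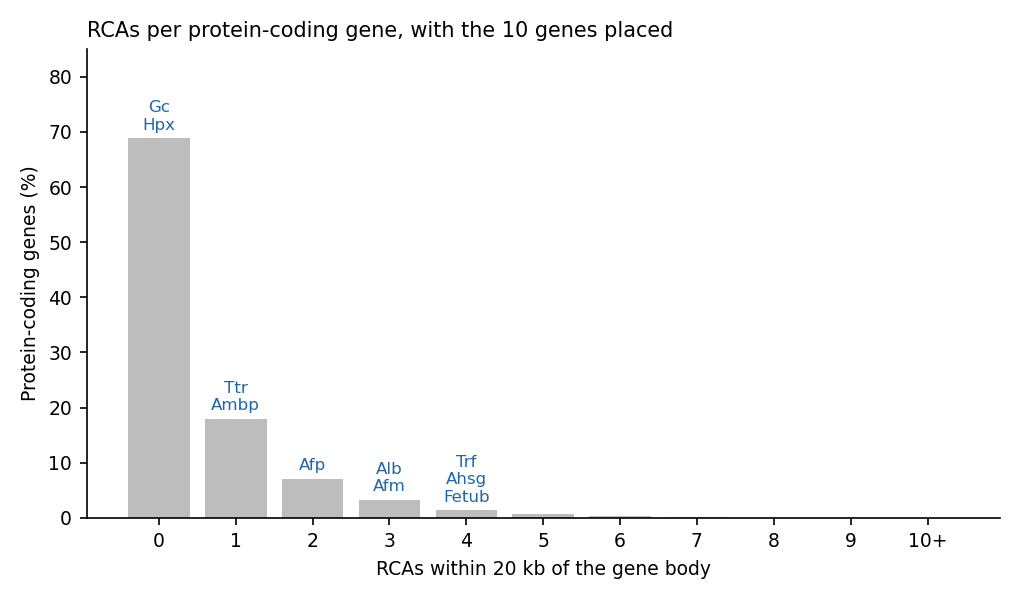
Share of protein-coding genes (%, bars) by the number of RCAs within 20 kb of the gene body, with the names of the 10 carrier genes above the bar of their own count. Gc and Hpx stand with the 68.8% of genes that had none, and Trf, Ahsg and Fetub stand at 4.

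Each region carries an area, the area under the peak caller's −log10 p curve in the pooled call of its genotype, which grows with both the height and the width of the region. The 19 RCAs had areas of 227 to 596 with a median of 342, and the whole RCA list had a median of 278 with quartiles of 232 and 351. No RCA of the list had an area under 200. Of the 19, 15 (78.9%) were above the median of the list, and 13 (68.4%) reached an area of 300, against 40.8% of all RCAs. Their widths ran from 233 to 1411 bp with a median of 329 bp, close to the 326 bp of the list. The area per base pair, a mean height over the called region, had a median of 0.944 beside 0.909 for the list. By class, 5 of the 19 overlapped the sequence within 200 bp of an annotated start (promoter), 1 an exon, 6 an intron, and 7 were intergenic. Intergenic regions were thus 36.8% of the 19 and 30.4% of the list, and promoter regions 26.3% and 19.4%. These classes refer to any annotated gene. The promoter class includes regions at the starts of 5830473C10Rik and Hrg, and the intron class includes regions in introns of 5830473C10Rik, Gm30505 and Gm16090.

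**Figure D2:**
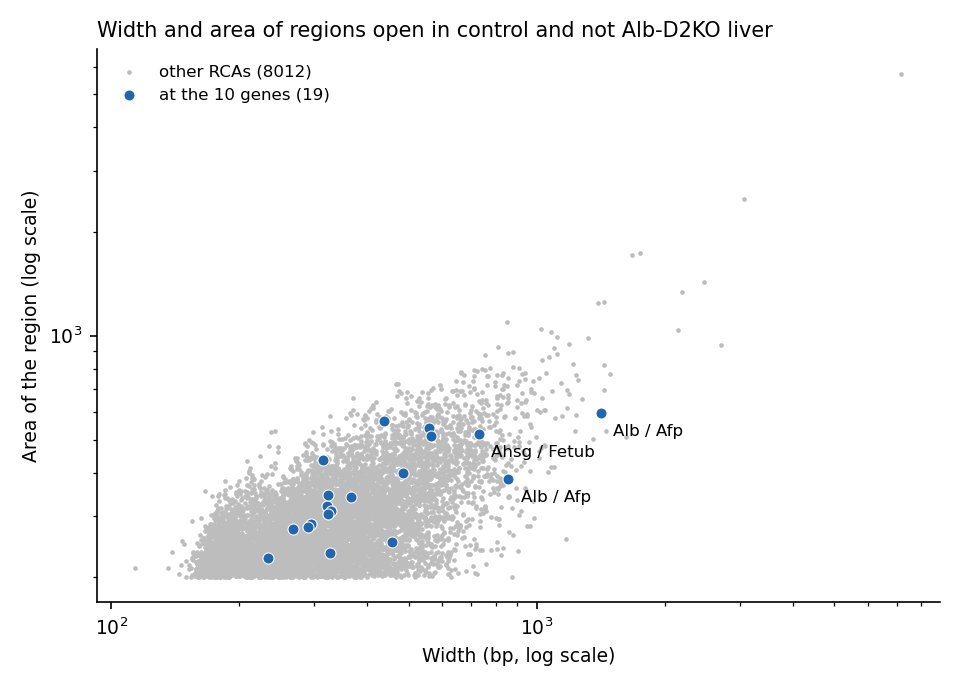
Width (bp) and area of every RCA (grey points, log axes), with the RCAs at the 10 genes in colour. The widest of these, at 1411 bp, lies directly downstream of Alb, and the smallest area, 227, is that of the region upstream of Ttr.

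In the albumin locus, the RCAs sat upstream of Alb, at its 3′ end, and beyond Afm at the start and in an intron of 5830473C10Rik. None sat at the start of Alb, Afp or Afm. Alb (ENSMUSG00000029368.10, chr5:90460897-90476602, + strand) had 3 RCAs within 20 kb, with areas of 322, 386 and 596. Their summed area of 1303 ranked 485 among the 21951 protein-coding genes, and 6.05% of these genes had as many RCAs or more. None of the 3 annotated start sites of Alb had an RCA within 200 bp.

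The first RCA of Alb, chr5:90447599-90447919, was 321 bp wide and intergenic, and ended 12978 bp before the gene. Its area of 322 was larger than that of 66.8% of all RCAs. A further RCA, of area 203, lay 21.4 kb upstream and so just outside the window. The second, chr5:90473981-90474836, was 856 bp wide, covered all 133 bp of coding exon 13 and took in intron on both sides. It was wider than 98.5% of RCAs, and 2.86% of RCAs had a lower area per base pair (0.450 here). The third, chr5:90476632-90478042, began 30 bp after the annotated end of Alb. It was the 15th widest RCA of the list at 1411 bp, with the largest area of the 19 (596), while its area per base pair of 0.422 was above that of 1.86% of RCAs. Both regions at the 3′ end of Alb were therefore broad in the control call, with a low mean height over their width. Since no RCA had an area under 200, a region of so low a mean height could be listed only if it was broad. At the summit their −log10 q was 3.01 (exon 13) and 2.54 (downstream), beside a list median of 3.14. The upstream region, at 321 bp, was close to the list median in width and had a higher area per base pair than 60.9% of RCAs.

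The bases around the summit of each of these RCAs are shown to let the 3 regions be read against the Alb promoter, which no RCA overlapped. Capitals mark matches to any of 7 short motifs on either strand. The letters GTTAAT are recognised by the hepatocyte factor HNF1, TTGCNNAA by the liver factor family C/EBP, TGTTTAC by the pioneer factor family FOXA, CAAAGT by the nuclear receptor HNF4, AGGTCA by the thyroid hormone receptor and its relatives, CCAAT by the general promoter factor NFY, and TATAAA is the box that positions transcription starts. On the same strand CAAAGT and AGGTCA can share bases. All genomic sequence is from the RefSeq GRCm38.p6 assembly, whose coordinates are those of mm10, and is written 5′ to 3′ on the strand of the gene.
Alb upstream RCA, chr5:90447751-90447871 (+ strand): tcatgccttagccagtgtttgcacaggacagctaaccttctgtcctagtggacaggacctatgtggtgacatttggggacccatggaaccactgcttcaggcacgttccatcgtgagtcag
Alb exon 13 RCA, chr5:90474327-90474447 (+ strand): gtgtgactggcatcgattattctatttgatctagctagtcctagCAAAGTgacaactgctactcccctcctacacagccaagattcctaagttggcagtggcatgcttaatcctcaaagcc
Alb downstream RCA, chr5:90477737-90477857 (+ strand): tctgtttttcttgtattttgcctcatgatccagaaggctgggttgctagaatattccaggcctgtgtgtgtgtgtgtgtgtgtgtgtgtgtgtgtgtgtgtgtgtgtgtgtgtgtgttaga
Alb promoter before the RefSeq start, chr5:90460720-90460869 (+ strand): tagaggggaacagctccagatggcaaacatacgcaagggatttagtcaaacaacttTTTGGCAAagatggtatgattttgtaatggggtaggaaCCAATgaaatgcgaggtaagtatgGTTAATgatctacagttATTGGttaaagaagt
The downstream summit sat beside a run of TG dinucleotides, and 14.2% of that region was repeat-masked. The Alb promoter held GTTAAT 1 time, TTGCNNAA 1 time and CCAAT 2 times within these 150 bases, and the summit windows of the RCAs held a single CAAAGT between them. Over their whole length the 3 RCAs held CAAAGT 7 times, CCAAT 4 times, TATAAA 4 times, GTTAAT 1 time and AGGTCA 1 time, with no match to TTGCNNAA or TGTTTAC. A match is a string of letters and not a measured binding site.

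**Figure D3:**
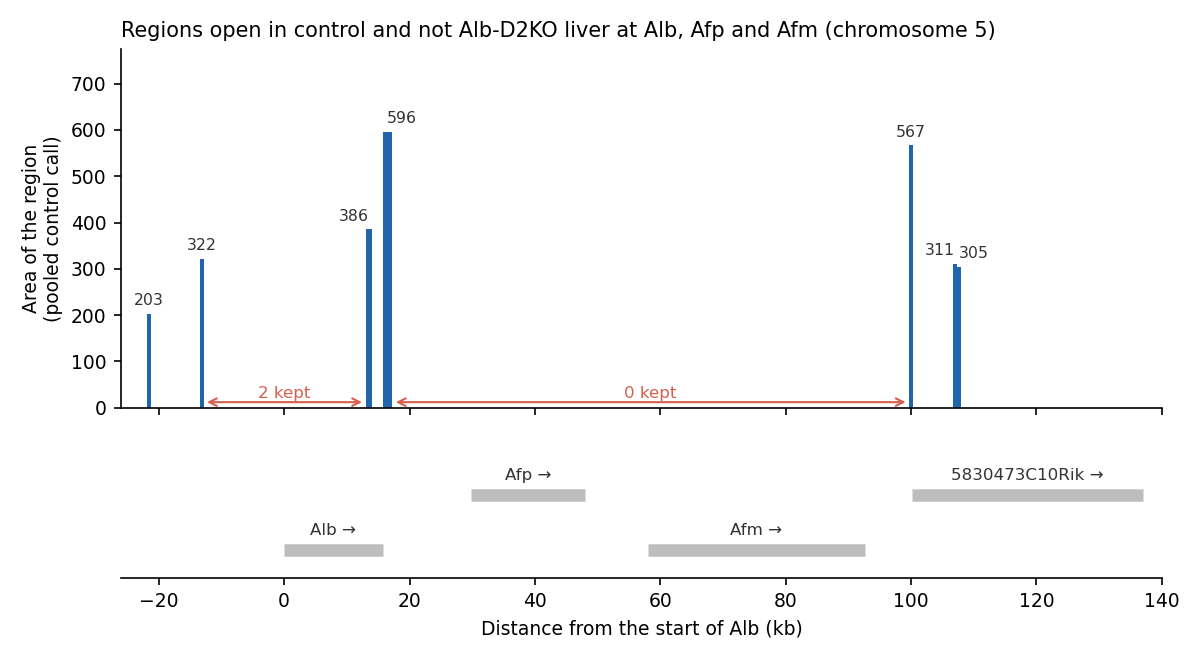
Area of each RCA (bars, drawn wider than their true width where that would be too thin to see) by distance from the start of Alb (kb), with gene bodies and their direction below. Arrows give the number of control regions that also overlapped an Alb-D2KO region, 2 across the start of Alb and 0 across Afp and Afm.

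The regions of the control call carry running numbers along each chromosome, and a number missing from the RCA list was read here as a control region that the subtraction removed because it overlapped an Alb-D2KO region (a shared region). Counted this way, at least 22368 regions were called in control liver, of which 35.9% were RCAs, and the RCAs with numbers 6165 and 6168 on either side of the start of Alb left room for 2 shared regions. Their positions within the stretch of 26.1 kb between both RCAs are not known, and overlap does not mean that accessibility was equal. Between the 2 RCAs at the 3′ end of Alb no number was missing. From the downstream RCA of Alb to the next RCA, a stretch of 82.7 kb that holds all of Afp and all of Afm, no number was missing either, so the control call had no region there at all. Among the 3337 stretches between neighbouring RCAs that were at least this long, 519 (15.6%) were likewise empty. The nearest RCAs outside the windows of Alb, Afp and Afm were 250 kb apart, the one beyond Afm 116 kb from the window. Between these flanking RCAs, 6 of 9 control regions (66.7%) were RCAs.

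Afp (ENSMUSG00000054932.6, chr5:90490737-90508907, + strand) encodes alpha-fetoprotein, the fetal counterpart of albumin. Both of its RCAs were those at the 3′ end of Alb, 15901 and 12695 bp upstream of Afp, and no RCA lay in the gene or at any of its 5 annotated start sites. Their summed area of 981 ranked 922 among protein-coding genes. The intergenic sequence between Alb and Afp is 14.1 kb long, and distance alone does not say which gene a region in it serves. The Afp promoter is shown because it held 4 of the 7 motifs within 150 bases and no region of either genotype's list overlapped it.
Afp promoter before the RefSeq start, chr5:90490564-90490713 (+ strand): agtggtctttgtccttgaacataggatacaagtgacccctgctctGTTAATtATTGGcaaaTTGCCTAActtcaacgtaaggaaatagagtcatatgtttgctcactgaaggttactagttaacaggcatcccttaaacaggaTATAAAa
GTTAAT and the reverse complement of CCAAT stood 1 base apart in it, followed by TTGCNNAA, and TATAAA ended 1 base before the end of the window.

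Afm (ENSMUSG00000029369.17, chr5:90518932-90553543, + strand) encodes afamin, a vitamin E-binding protein. It had 3 RCAs, all downstream, with areas of 567, 311 and 305, and their summed area of 1182 ranked 627. The largest, chr5:90560702-90561139, lay 7159 bp after Afm and overlapped the start of 5830473C10Rik, the next coding gene. It was 438 bp wide with an area per base pair of 1.29, higher than 87.6% of RCAs. The study lists this region, under the gene name Albfm1, among promoter RCAs close to a fall in RNA. It reports peaks of CTCF and cohesin there, proteins of chromatin folding, from published mouse liver data. The other two, chr5:90567789-90568117 and chr5:90568339-90568662, lay in an intron of 5830473C10Rik, 14246 and 14796 bp after Afm. All 3 thus overlapped 5830473C10Rik and none overlapped Afm. The summit of the largest is shown because it held FOXA and HNF4 letters 5 bases apart.
Afm downstream RCA, chr5:90560859-90560979 (+ strand): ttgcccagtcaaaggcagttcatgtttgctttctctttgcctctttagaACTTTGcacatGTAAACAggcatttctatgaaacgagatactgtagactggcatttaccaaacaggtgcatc

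Gc (ENSMUSG00000035540.12, chr5:89417522-89457898, − strand) encodes the vitamin D-binding protein and lies 1003 kb from Alb. No RCA came within 20 kb, and the nearest, chr5:89277623-89277924 with an area of 425, was 139598 bp away. The RCAs on either side of Gc left room for 2 shared control regions in a stretch of 1161 kb, so at most 2 control regions could lie at Gc. Over the 1236 kb that reach from Gc to Afm with 50 kb on either side, all 7 RCAs fell within the 129 kb from 21.4 kb before Alb to the introns of 5830473C10Rik. Of the 11 coding genes in that stretch, 4 had an RCA within 20 kb and 7 had none. Among all protein-coding genes the share with an RCA was 31.2%, so this count is not particular to the stretch. It held no Alb-D2KO-only region. Reads from the albumin promoter of the Cre transgene cannot be told apart from reads of Alb where the sequences are the same, and the length of that promoter is not given in the sources used here.

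Ahsg and Fetub, neighbours on chromosome 16, had the densest RCAs of the 10 genes, at 7.91 per 100 kb of their windows, and were the only members with RCAs at their own start sites. Ahsg encodes fetuin-A, which binds calcium phosphate in plasma, and Fetub encodes fetuin-B, a protease inhibitor needed for fertilization. Ahsg (ENSMUSG00000022868.6, chr16:22891277-22899449, + strand) had 4 RCAs with a summed area of 1901, which ranked 147 of 21951 and was the largest sum of the 10. Fetub (ENSMUSG00000022871.13, chr16:22918334-22939778, + strand) also had 4, with a summed area of 1522 and a rank of 304. Of all protein-coding genes, 2.72% had 4 RCAs or more.

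At Ahsg, the RCA chr16:22891170-22891483 covered the first annotated start with an area of 437 over 314 bp. Its area per base pair of 1.39 was higher than that of 92.6% of RCAs, and its −log10 q of 3.85 was the highest of the 19. The next, chr16:22891647-22892203, was 557 bp wide with an area of 542 and covered the RefSeq start at base 22892015. Between them these regions reached 5 of the 8 annotated start sites of Ahsg. The RCA chr16:22881282-22881766, of area 402, lay 9511 bp upstream in an intron of the antisense gene Gm30505. The fourth, chr16:22899794-22900523, was 730 bp wide with an area of 521 and began 345 bp after the end of Ahsg, 17811 bp upstream of Fetub, so it counts for both genes.

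At Fetub, the RCA chr16:22919938-22920502 was 565 bp wide with an area of 513 and reached 3 of the 7 annotated start sites. It overlapped the second of the 2 RefSeq promoters of the gene and not the first. A weaker RCA, chr16:22922443-22922769 with an area of 235, lay in an intron, and another, chr16:22950920-22951377 with an area of 254, lay 11142 bp downstream at the start of Hrg. The promoters that an RCA overlapped are shown with the summit of the region between both genes, as the places where start sites themselves were concerned. Of 32851 RefSeq promoters, 1027 (3.13%) overlapped an RCA, and of the 9 RefSeq promoters found for 8 of the 10 genes these were the 2 that did.
Ahsg promoter before the RefSeq start, chr16:22891865-22892014 (+ strand): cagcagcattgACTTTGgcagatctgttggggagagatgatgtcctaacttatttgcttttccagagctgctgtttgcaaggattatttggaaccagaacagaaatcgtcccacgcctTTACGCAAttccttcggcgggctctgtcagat
Ahsg downstream RCA, chr16:22899979-22900099 (+ strand): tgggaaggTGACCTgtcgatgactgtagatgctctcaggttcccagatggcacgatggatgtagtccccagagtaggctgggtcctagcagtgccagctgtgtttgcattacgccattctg
Fetub second promoter before the RefSeq start, chr16:22920072-22920221 (+ strand): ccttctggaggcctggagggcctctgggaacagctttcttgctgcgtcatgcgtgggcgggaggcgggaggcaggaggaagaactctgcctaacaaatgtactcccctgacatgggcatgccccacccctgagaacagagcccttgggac
The first held CAAAGT and TTGCNNAA on the reverse strand, and the second AGGTCA on the reverse strand. The third, at 62.0% G and C, held none of the 7 motifs in the bases printed. Over its whole length the RCA at that promoter held TGTTTAC 1 time.

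**Figure D4:**
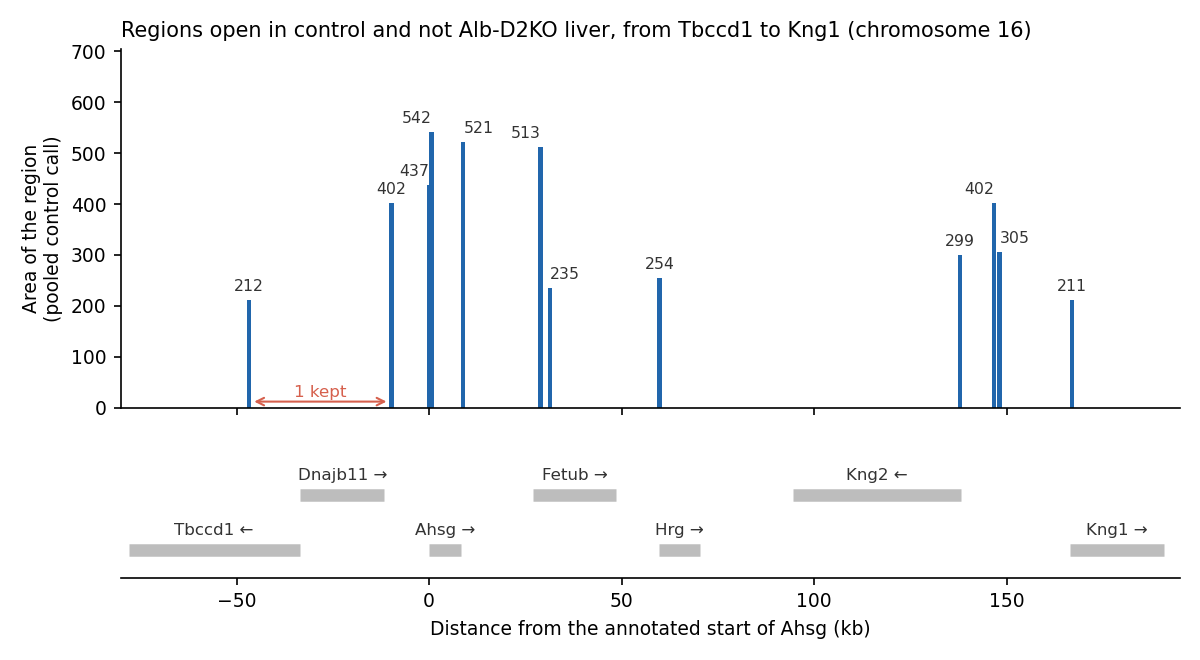
Area of each RCA (bars, drawn wider than their true width where needed) by distance from the annotated start of Ahsg (kb), with gene bodies and their direction below. From 402 upstream of Ahsg to 211 at Kng1 no control region between the bars was shared with Alb-D2KO liver, and 1 shared region lay between Tbccd1 and the Ahsg upstream region.

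The RCAs from 9511 bp upstream of Ahsg to Kng1 bore the numbers 19192 to 19202 with none missing. All 11 control regions over these 177 kb were therefore RCAs, with a summed area of 4120. They ran through Ahsg, Fetub, Hrg (histidine-rich glycoprotein) and Kng2 to Kng1, which encode kininogens, and all of these genes are of the cystatin superfamily. The study lists the RCA at the start of Kng2 with peaks of CTCF and cohesin as well. The list fell into 4669 runs without a missing number when single RCAs were counted as runs, and 1808 of them had 2 RCAs or more. Of the 4669, 12 (0.257%) were at least as long as this run, and the longest had 17 RCAs. The run at the 3′ end of Alb and beyond Afm had 5 RCAs over 94.7 kb, and 172 runs (3.68% of the 4669, single RCAs included) were at least that long.

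Trf and Ambp had RCAs upstream, and none of these lay at a start site of the gene. Trf (ENSMUSG00000032554.15, chr9:103204001-103230444, − strand) encodes transferrin, the iron carrier. It had 4 RCAs with areas of 275, 285, 279 and 345, which sum to 1184 and ranked 623. The first, chr9:103207851-103208118, lay in an intron and was 3888 bp from the nearest annotated start of Trf. It also overlapped Gm20425, another annotated coding gene. The others were intergenic, at chr9:103234597-103234891, chr9:103241250-103241539 and chr9:103243725-103244047, which is 4153, 10806 and 13281 bp upstream of the gene. The 4 widths ran from 268 to 323 bp, beside a list median of 326 bp. The areas were near the list median of 278, except that of the farthest upstream region. Its area of 345 was larger than that of 73.6% of RCAs. The start nearest to that region was not that of Trf but that of 1300017J02Rik, 12979 bp away. No control region between the 3 upstream RCAs was shared with Alb-D2KO liver, and 1 shared region lay in the 26.5 kb between the intronic RCA and the first of them, a stretch that holds the annotated start of Trf.

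Ambp (ENSMUSG00000028356.4, chr4:63143275-63154799, − strand) encodes the precursor of alpha-1-microglobulin, a heme and radical scavenger, and of the protease inhibitor bikunin. Its single RCA, chr4:63158865-63159229, was intergenic, 4066 bp upstream, 365 bp wide and of area 342, the median of the 19. The control call left room for 2 shared regions in the 39.7 kb that hold the gene. Ambp was also the member nearest to an Alb-D2KO-only region, at 123 kb. The summits of the RCAs nearest upstream of Trf and Ambp are shown for comparison. The Trf summit lies near the edge of its RCA, which starts at base 103234597, so the last bases printed for Trf fall outside the RCA.
Trf upstream RCA, chr9:103234583-103234703 (- strand): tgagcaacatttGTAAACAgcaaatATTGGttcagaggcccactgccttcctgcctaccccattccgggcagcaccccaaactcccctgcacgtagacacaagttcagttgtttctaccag
Ambp upstream RCA, chr4:63159053-63159173 (- strand): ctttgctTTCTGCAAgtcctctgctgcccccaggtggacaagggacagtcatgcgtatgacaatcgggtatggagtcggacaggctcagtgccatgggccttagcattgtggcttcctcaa
The Trf window held FOXA letters and CCAAT, both on the reverse strand, and the Ambp window held TTGCNNAA on the reverse strand.

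Hpx (ENSMUSG00000030895.9, chr7:105591613-105600137, − strand) encodes hemopexin, the plasma scavenger of heme. It had no RCA, and the nearest, of area 483, lay 636371 bp away. The stretch without any RCA around Hpx was 3898 kb long and held 17 control regions, all of them shared with Alb-D2KO liver.

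Ttr (ENSMUSG00000061808.4, chr18:20665280-20674321, + strand) encodes transthyretin, which carries thyroxine and, through retinol-binding protein, vitamin A. Its single RCA, chr18:20663444-20663676, lay 1604 bp upstream in an intron of the antisense gene Gm16090. It was the narrowest of the 19 at 233 bp and had the smallest area, 227, larger than that of 21.5% of RCAs. More RCAs lay just outside the window, at 22.04 and 24.8 kb upstream with areas of 308 and 355. The 257 kb that follow the RCA and hold the gene left room for 2 shared control regions. Among the thyroid hormone carriers, the RCAs of Alb had areas of 322 to 596, and Serpina7, the gene of thyroxine-binding globulin, had no RCA within 20 kb. Serpina7 lies on chromosome X, for which the study reports fewer RCAs per megabase than for any autosome.

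**Figure D5:**
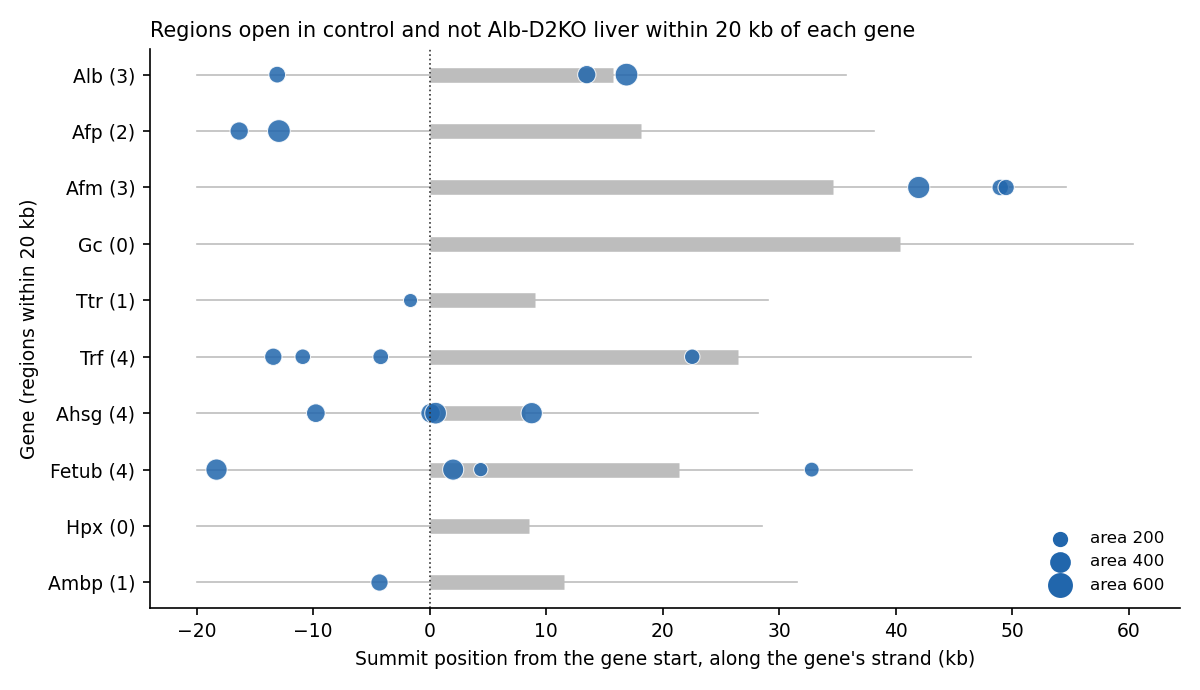
Summit of every RCA within 20 kb of each of the 10 genes (points, sized by area), in kb from the gene start along the gene's strand, with the gene body as a thick line and the window as a thin one. Of the 19 RCAs 6 lie in gene bodies, and the rows of Gc and Hpx are empty.

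Of 27 other plasma protein genes, 22 (81.5%) had an RCA within 20 kb, 14 had one in the gene body, and the Alb-D2KO-only list reached none of them. Their windows held 2.95 RCAs per 100 kb with a median area of 311, beside 3.67 and 342 for the 10 carrier genes. The highest summed areas among them were 1671 for Serpina6 (corticosteroid-binding globulin, 5 RCAs), 1667 for Hp (haptoglobin, 4 RCAs) and 1646 for Itih4 (an inter-alpha-trypsin inhibitor heavy chain, 4 RCAs), followed by 1066 for Itih2 and 1006 for Kng2. Ahsg, with 1901, stood above all of these. Besides Serpina7, the genes with no RCA were Shbg, Itih1, Igfbp1 and A1bg. Among cell type markers, 6 of 6 further hepatocyte genes had an RCA within 20 kb, 3 of 6 endothelial genes and 2 of 5 cholangiocyte genes. Kupffer and stellate cells had 0 of 6 genes each. The share of all protein-coding genes was 31.2%, and lists this short cannot be set apart from it with any precision. An RCA does not show which cell types were present. Accessibility within each cell type and the number of cells of each type cannot be told apart in whole liver. The targeted gene Dio2 had no region of either list within 20 kb, so the lists hold no check of its deletion.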

How the data were processed

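ATAC-seq libraries of adult liver nuclei, 4 control and 4 Alb-D2KO, were compared. The authors removed adapters, aligned reads to mm10 with BWA 0.7.17, dropped chimeric, duplicate, supplementary and low-quality alignments, called regions with Genrich 0.6 at a q-value of 0.05 on grouped libraries outside a blacklist of regions found in single libraries, and subtracted overlapping regions of the other genotype. The grouping was read as one call per genotype from the separate numbering of both lists. In the deposited lists the signal is the area under the −log10 p curve, and the −log10 q is that of the summit. The deposited score, which derives from the area, and the −log10 p of the summit were not used.

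From these lists, regions were assigned to gene bodies with 20 kb on either side by GENCODE M21, with an overlap of at least 1 bp, using pandas 2.3.3 and pysam 0.24.0. A region was classed as promoter if it came within 200 bp of a start, else as exon, intron or intergenic, in this order. The 10 genes, the 27 other plasma protein genes, the marker lists and the motifs were chosen with earlier results of these data known. Named genes are the 10, the 5 other plasma protein genes with the highest summed area, the genes without an RCA and the neighbours of the named regions. Alternatives changed the distance, the area, q and width minimums, the merging of neighbours, the gene set and the promoter window. The assignment was checked on simulated regions. The samples are separate libraries of the labels, and no p-value was computed.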

Additional observations from a re-analysis of the deposited data

How the results depend on the processing

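The counts rest mainly on the distance allowed. With the gene body alone, 6 RCAs at 4 of the 10 genes remained, against 15.7% of protein-coding genes, and within 5 kb there were 11 RCAs at 6 genes, against 21.1%. With 50 kb there were 25 RCAs at the same number of genes, 8, and 44.3% of protein-coding genes. An area of at least 300 gave 13 RCAs at 7 genes and lowered the share of protein-coding genes to 16.4%, and a q under 0.001 gave 13 RCAs at 7 genes, against 25.001% of protein-coding genes. Over all annotated genes the share was 20.5%. The region midpoint, a minimum width of 200 bp and the merging of neighbours within 100 bp left 19 RCAs at 8 genes. Alb-D2KO-only regions numbered 0 in each of these settings. Of 80 alternative counts for single genes, 23 differed by over 1.5 times from the reported count. A promoter window of 1000 or 3000 bp placed 6 or 7 of the 19 RCAs in the promoter class. No replicate could be left out, because each list is 1 pooled call, and areas of the 2 genotypes at the same place are not in the lists. Regions just under the threshold of one genotype cannot be told from absent ones.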

Other observations

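The 19 RCAs at the carrier genes had a median content of 47.4% G and C, with a range of 42.9% to 56.7%, beside a median of 51.9% over 8021 RCAs on chromosomes. CpG dinucleotides numbered 1.24 per 100 bp at the median against 1.72. Of the 19, 11 (57.9%) held masked repeat sequence, beside 64.2% of the list, and in none did repeats reach a share that 2.02% of all RCAs had, at least as much repeat as other sequence.

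Letters of liver factors were counted in the same regions on both strands, as a description that was not tested and that overlaps where motifs share bases. CAAAGT (HNF4) was found in 8 of the 19 RCAs (42.1%), against 26.4% of all RCAs and 14.4% of RefSeq promoters, and TGTTTAC (FOXA) in 4 (21.1%), against 7.63% and 3.65%. TATAAA was found in 5 (26.3%), against 9.23% of all RCAs and 13.6% of promoters. TTGCNNAA (C/EBP) was found in 5 (26.3%) against 20.9% of all RCAs and 10.8% of promoters, and GTTAAT (HNF1) in 2 (10.5%) against 9.87% and 7.10%. AGGTCA, the letters of the thyroid hormone receptor element, were found in 4 (21.1%), against 34.5% of all RCAs and 16.3% of promoters. They stood in the exon 13 region of Alb, the region between Ahsg and Fetub, a region beyond Afm and the region farthest upstream of Trf. CCAAT was found in 7 (36.8%), against 36.7% of all RCAs and 37.4% of promoters. Wider regions hold more letters, and the matches per kb in the 19 against all RCAs were 1.69 against 0.882 for CAAAGT, 0.450 against 0.218 for TGTTTAC, 0.900 against 0.291 for TATAAA and 0.562 against 1.25 for AGGTCA. Per kb, the values of TTGCNNAA (0.562 against 0.675), GTTAAT (0.225 against 0.294) and CCAAT (1.24 against 1.35) were lower in the 19, although the shares of regions were higher. None of these counts was adjusted for base composition, and the 19 had less G and C at the median (47.4% against 51.9%). The 3 RCAs of Alb alone held 7 of the 15 CAAAGT matches and 4 of the 8 TATAAA matches.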
